A study of Mus musculus with 13 samples.

Results

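Periportal hepatocytes were taken as the end of a ranking of cells within each mouse liver section. Cells with 100 or more counts were ranked by the share of their counts from Cyp2e1 and by the share from Pck1, and the Pck1 rank was subtracted from the Cyp2e1 rank. Members were chosen by these shares as the lowest 20% of each section, after the 5% of cells with the highest Glul share were set aside. The rule gave 24543 periportal cells among 122974 cells kept and 131221 cells in all. These measured shares chose the cells, so the levels of the same cells beside other cells are given as a description without a test. Pericentral cells (18887, the highest 20% of the ranking without the top Glul cells) and middle cells (24513, between 40% and 60%) served for comparison.

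The series followed the regrowth of the mouse liver after partial hepatectomy, the removal of part of the organ, by Molecular Cartography, which counts single transcripts of a chosen gene panel in place. All animals were male C57BL/6 mice on regular chow, and frozen livers were sectioned. Sections numbered 2 at 0 h, 2 at 24 h and 2 at 48 h, then 2 at 72 h and 3 at 14 d, with 1 more at 3 mo and 1 at 6 mo after surgery. No other genotype, treatment or sham group was among these samples. The labels give an age of 2 months for every sample without saying whether it is the age at surgery, and if it is, age cannot be told apart from time at 3 mo and 6 mo. No label ties a section to an animal, so the p-values below may measure technical spread only. The 2 sections of 24 h were summed to 1 library because the labels do not number them, which left 12 libraries.

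Hepatocytes divide their work along the liver lobule. Those beside the portal vein receive the blood that is richest in oxygen and nutrients and are known for glucose production, for the urea cycle and for the breakdown of glutamine and other amino acids. Those beside the central vein are held in their state by Wnt signals of the central vein endothelium and are known for drug metabolism and for glutamine synthesis. After partial hepatectomy the remaining hepatocytes keep these functions while many of them enter the cell cycle.

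The 13 sections differed in ways that touch the values below. Periportal cells had a median of 290 and 344 counts at 0 h, 327 to 560 at the other times except 14 d, and 549 to 746 at 14 d, when all sections lay on slide 3. Their summed counts came to 522818 to 2157624 per library. The periportal cells of the 2 sections at 0 h, on different slides, differed more than any other pair of sections of one time, with a root mean square log2 difference of 1.73 over genes against 0.26 to 0.87 for the other pairs. At 0 h G6pc had 20832 CPM in the periportal cells of section 1 and 251604 in those of section 2. CPM stands for counts per 1000000 counts after TMM scaling, which multiplies the total of each library by a factor. This factor was 0.534 for section 2 of 0 h and 0.771 to 1.298 for the other periportal libraries. It sets the CPM of section 2 of 0 h above its plain counts per 1000000 counts. At 14 d the slide cannot be told apart from the time.

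The cells carried the transcripts that the name asks for. Pck1, which commits oxaloacetate to glucose production and was part of the rule, held 20.5% to 37.9% of the counts of periportal cells and 1.22% to 7.15% of those of pericentral cells. The other panel levels are given per 1000 counts of all genes but Cyp2e1, Pck1 and Glul. Arg1, the arginase that releases urea, had a median of 23.3 over the 13 sections in periportal cells, 18.3 in middle cells and 6.60 in pericentral cells. Ass1, which joins citrulline to aspartate in the urea cycle, had medians of 13.2 in periportal, 10.04 in middle and 3.61 in pericentral cells. Gls2, the liver glutaminase, had medians of 5.63 in periportal, 3.47 in middle and 0.14 in pericentral cells. Arg1 and Ass1 were higher in periportal than in middle cells in 13 of 13 sections and Gls2 in 12 of 13, and all 3 were higher than in pericentral cells in 13 of 13.

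Further genes followed the same order. Hsd17b13, a lipid droplet enzyme, had medians of 18.7 in periportal, 10.3 in middle and 0.71 in pericentral cells, and Fbp1, a gluconeogenic phosphatase, 83.1, 50.3 and 22.2 in the same order. G6pc, the last enzyme of glucose release, and Igf1, a growth factor secreted by hepatocytes, were also higher in periportal than in middle cells in 13 of 13 sections. Cps1, the entry enzyme of the urea cycle, did not separate them from middle cells: its medians were 126 in periportal and 132 in middle cells, and it was higher in periportal cells in 7 of 13 sections. At the boundary the ranking was smooth. Cells ranked between 18% and 20% had 14.0 to 29.8 Arg1 counts per 1000 and cells ranked between 20% and 22%, just outside, had 13.9 to 28.6.

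The rule left few cells with Cyp2e1 at most times. Cyp2e1, a central drug-metabolizing enzyme and part of the rule, had no count in 99.2% to 100% of periportal cells outside 14 d. At 14 d it had no count in 63.7%, 63.4% and 71.8% of the periportal cells of the 3 sections. Since 35.2% to 51.5% of all kept cells had no Cyp2e1 count outside 14 d but 18.01% to 21.36% at 14 d, the lowest 20% took in far more cells with Cyp2e1 at that time. With each cell thinned to 100 counts, 9.56% to 12.1% of periportal cells at 14 d still had a Cyp2e1 count, against at most 0.15% in any other section.

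**Figure D1:**
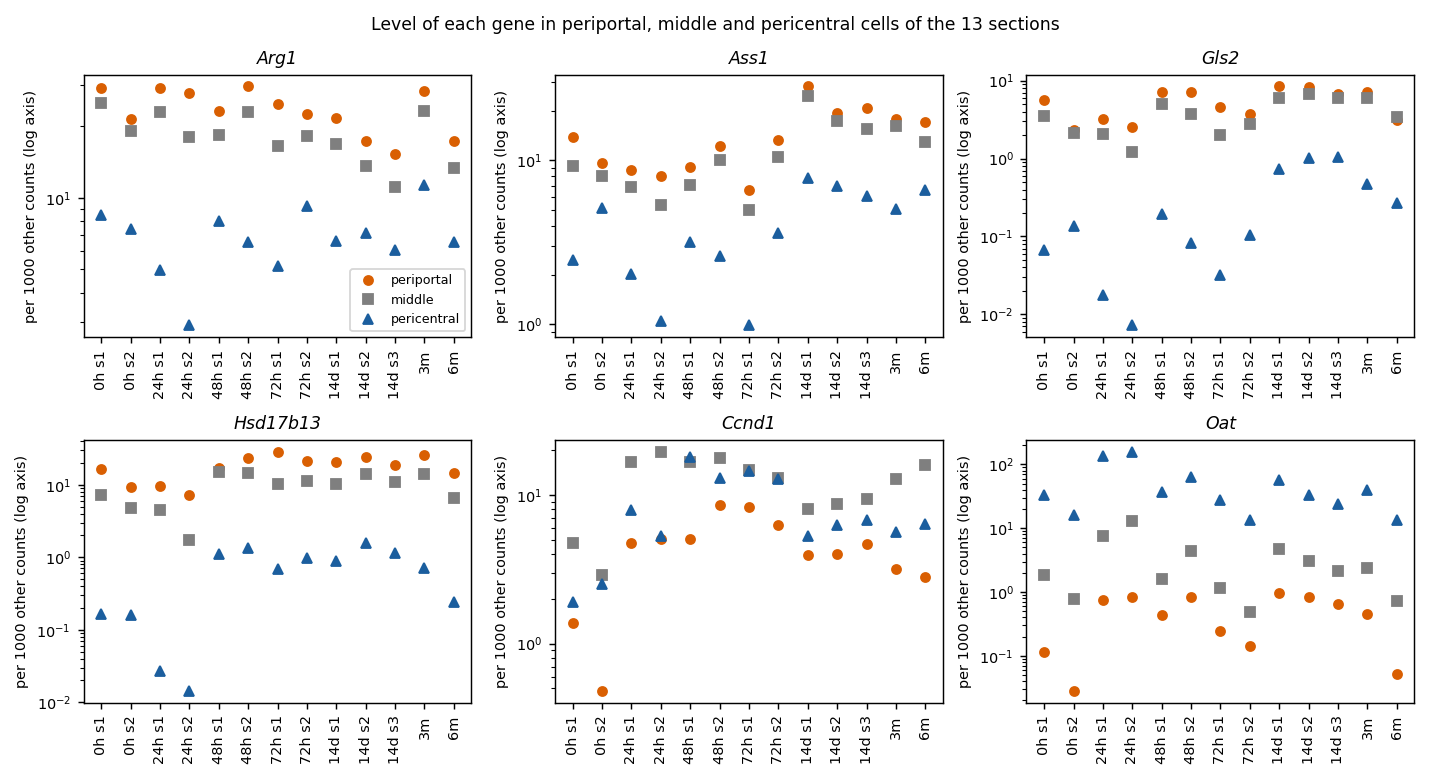
Each panel plots the level of a gene, in counts per 1000 counts of genes other than Cyp2e1, Pck1 and Glul on a log axis, in periportal cells (orange circles), middle cells (grey squares) and pericentral cells (blue triangles) of each of the 13 sections (s1 to s3 number the sections of a time). Arg1, Ass1 and Hsd17b13 were highest in periportal cells in 13 of 13 sections, while Ccnd1 was lower in periportal than in middle cells in 13 of 13 and Oat was lowest in periportal cells throughout.

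Positions, which the rule did not use, placed the periportal cells together. Among the 10 nearest kept cells of a periportal cell, 39.0% to 62.2% were periportal too (median 50.1% over sections), where 20% of all kept cells were. Among the 10 nearest cells of a middle cell 4.83% to 22.3% were periportal, and of a pericentral cell at most 0.15%. Between 1.02% and 3.06% of the periportal cells had no periportal cell among their 10 nearest. Cells with 2 or more counts of Sox9, a transcription factor of bile duct cells, which run beside the portal vein, lay at a median distance of 179 to 560 coordinate units from periportal cells, 239 to 846 from middle cells and 530 to 1604 from pericentral cells. The sources used here do not give the length of a unit, and the nearest cell lay 88.1 to 101 units away in the median. In each of the 13 sections the periportal cells were nearest to Sox9 cells, followed by the middle cells. At 14 d periportal cells lay 179, 186 and 225 units and pericentral cells 556, 530 and 631 units from a Sox9 cell. Those sections held 754, 1113 and 799 Sox9 cells, where the others held 82 to 420, and more such cells shorten any nearest distance. In section 1 of 72 h periportal cells lay 201 units away, within the range of 14 d. Distances to the top Glul cells were 610 to 1894 units for periportal cells, 697 to 1292 for middle cells and 290 to 402 for pericentral cells. Periportal cells lay nearer to them than middle cells in sections 2 and 3 of 14 d (634 and 610 units, against 748 and 697) and, by little, in section 2 of 72 h (1116 against 1119).

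**Figure D2:**
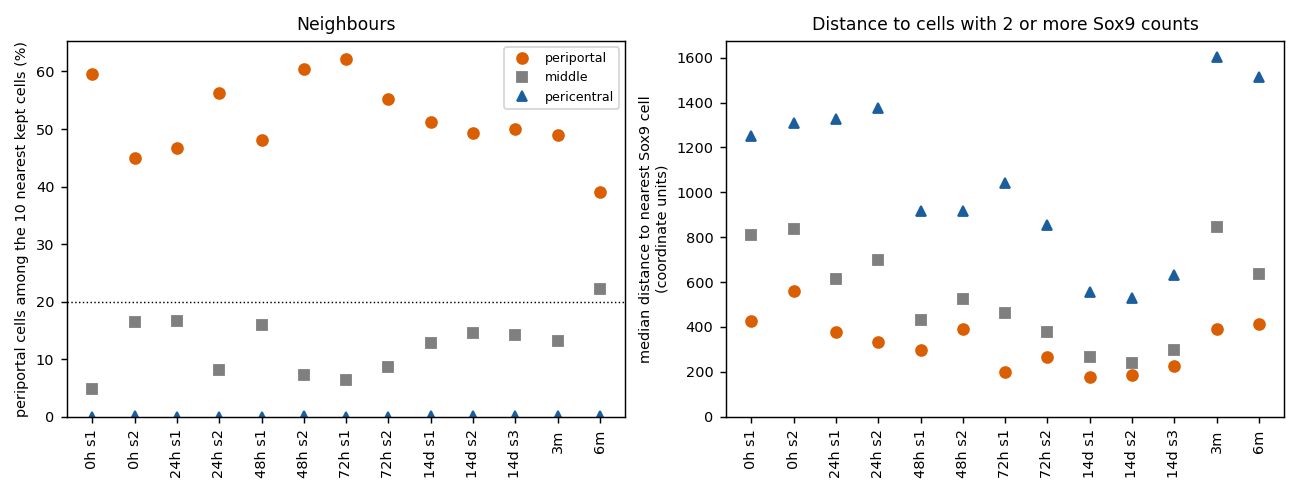
The left panel gives the percentage of periportal cells among the 10 nearest kept cells of periportal, middle and pericentral cells in each section, with a dotted line at the 20% that periportal cells make up of all kept cells. The right panel gives the median distance from the same cells to the nearest cell with 2 or more Sox9 counts, which was shortest for periportal cells in 13 of 13 sections.

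Transcripts of endothelial, macrophage and stellate cells were lower in periportal than in pericentral cells in 13 of 13 sections when set against the counts of genes other than Cyp2e1, Pck1 and Glul. Against all counts, those 3 genes included, they were lower in 12, 12 and 11 of 13 sections, and section 1 of 0 h went the other way for all 3 lists. Endothelial genes (Pecam1, Wnt2, Wnt9b and Rspo3) summed to 0.62 to 3.86 per 1000 in periportal cells and 3.93 to 15.9 in pericentral cells. Macrophage and leukocyte genes (Adgre1, Lyz2 and Ptprc) summed to 1.18 to 5.46 in periportal and 4.32 to 21.8 in pericentral cells, and Lrat of stellate cells to 0.49 to 4.41 in periportal and 2.69 to 11.4 in pericentral cells. The biliary genes Sox9 and Cldn7 ran the other way, at 0.51 to 1.71 in periportal and 0.02 to 0.53 in pericentral cells. They did not set periportal cells apart from middle cells, which had 0.37 to 2.33. Middle cells were higher in some sections and lower in others. They had 2.33 against 0.77 in periportal cells at 6 mo, and 0.91 against 1.71 in section 1 of 72 h. Of the cells with 2 or more Sox9 counts, 16.6% to 50.2% were periportal cells. With cells thinned to 100 counts, the central vein ligands Rspo3 and Wnt9b were found in at most 0.44% and 0.12% of the periportal cells of any section.

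The cells were not uniform along the ranking. Ccnd1, cyclin D1 of the G1 phase, was lower in periportal than in middle cells in 13 of 13 sections, with medians of 4.70 in periportal, 12.96 in middle and 6.39 in pericentral cells. In 10 equal bins of the ranking its level was highest in bin 6, 7 or 8 of every section, 2.56 to 9.29 times the level of the most periportal bin. Middle cells also carried more macrophage and leukocyte transcripts, at 5.35 to 28.2 per 1000 against 1.18 to 5.46 in periportal cells. What part cells other than hepatocytes had in the Ccnd1 level of the middle bins was not tested. Igfbp2, an insulin-like growth factor binding protein, also had its highest level away from the portal end, between bins 4 and 7, and was lower in periportal than in middle cells in 13 of 13 sections. G6pc was highest in the most periportal bin in 13 of 13 sections and Arg1 in 12 of 13. Gstm3, a mu-class glutathione transferase, was highest in bin 9 or 10 throughout. Within the 20% that formed the periportal cells, Ccnd1 at 48 h stood at 5.59 in bin 1 and 7.92 in bin 2, and at 0 h at 0.78 in bin 1 and 1.07 in bin 2.

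**Figure D3:**
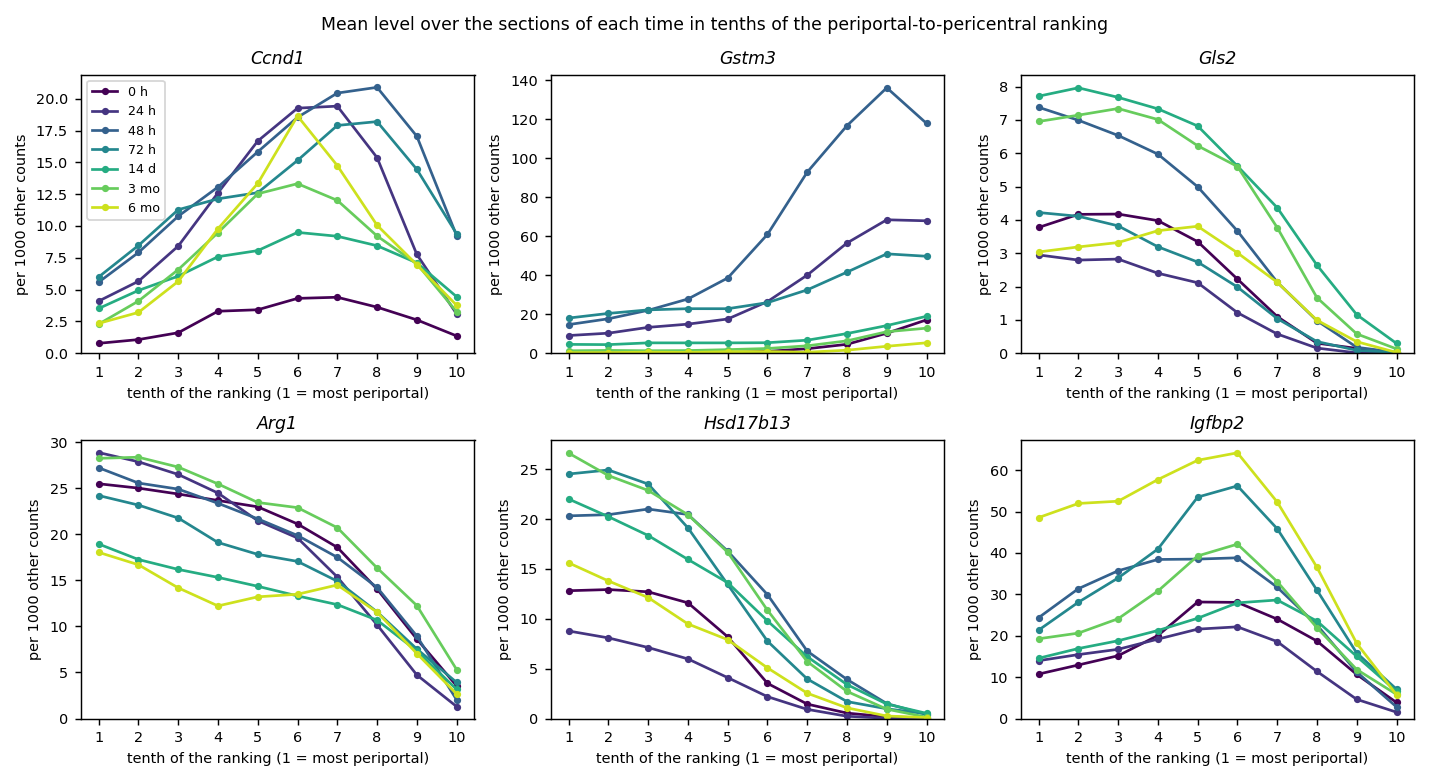
Lines join the mean level over the sections of a time (counts per 1000 counts of genes other than Cyp2e1, Pck1 and Glul) in 10 equal bins of the ranking from the most periportal (1) to the most pericentral (10), with one colour per time. Ccnd1 and Igfbp2 were highest in the middle bins, Arg1, Gls2 and Hsd17b13 at the periportal end, and Gstm3 at the pericentral end.

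Changes over time within the periportal cells were tested against 0 h on counts summed per library, for 88 genes (the 3 genes of the rule were left out of every count). At 24 h 11 genes (12.5% of those tested) were higher and 4 (4.55%) lower than at 0 h, 17% in all. At 48 h 11 (12.5%) were higher and 8 (9.09%) lower, 21.6% in all, and at 72 h 11 (12.5%) higher and 5 (5.68%) lower, 18.2% in all. At 14 d 16 (18.2%) were higher and 14 (15.9%) lower, 34.1% in all, at adjusted p under 0.05 by edgeR's quasi-likelihood test with Benjamini-Hochberg adjustment. At 3 mo 1 gene was higher (1.14%) and 0 were lower (0%). At 6 mo 9 (10.2%) were higher and 7 (7.95%) lower, 18.2% in all. Without adjustment 11 genes passed 0.05 at 3 mo, where DESeq2 called 4 as higher and 3 as lower. Scaling by total counts gave 9 higher and 2 lower at 24 h, 11 and 1 at 48 h, 9 and 0 at 72 h, 21 and 5 at 14 d, 1 and 0 at 3 mo, and 1 and 0 at 6 mo. In log2 it moved the median gene by 0.13 at 24 h and 0.47 at 48 h, by 0.52 at 72 h and 0.61 at 14 d, and by 0.73 at 3 mo but -0.01 at 6 mo, so smaller falls in particular depend on the scaling. Without section 1 of 0 h the calls numbered 32 at 24 h, 37 at 48 h, 33 at 72 h, 25 at 3 mo and 26 at 6 mo, and without section 2 of 0 h 27 at 24 h, 2 at 3 mo and 27 at 6 mo. Other single sections moved a count by more than 1.5 times at 48 h (9 calls without section 2 of 48 h), at 72 h (10 without section 1 of 72 h), at 3 mo (5 without section 2 of 72 h and 2 without 6 mo) and at 6 mo (9 without section 1 or without section 3 of 14 d).

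Several genes known from the central side of the lobule rose in the periportal cells. Of the 16 pericentral genes tested, 8 rose at 24 h (12.5% of all genes tested rose), 8 at 48 h (12.5%), 7 at 72 h (12.5%) and 9 at 14 d (18.2%). At each of these times 1 fell, when 4.55%, 9.09%, 5.68% and 15.9% of all genes fell. The list's median log2 change was 1.35 at 24 h, 1.27 at 48 h, 0.85 at 72 h and 2.46 at 14 d, against -0.08, 0.07, -0.07 and -0.02 over all genes tested. At 3 mo 1 of the 16 rose (1.14% of all genes did), and at 6 mo 3 rose (10.2%) and 1 fell (7.95%), with medians of 0.23 and -0.40. The 3 that rose at 6 mo were Axin2, Cldn2 and Tbx3.

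Gstm3 changed most steadily. It had 263 and 152 CPM in the 2 libraries of 0 h, 8419 at 24 h, 8110 and 11764 at 48 h, 13604 and 11818 at 72 h, 2509, 2364 and 2464 at 14 d, 850 at 3 mo and 258 at 6 mo. All libraries from 24 h to 3 mo lay above both at 0 h, and the library of 6 mo lay between them. The log2 change was 5.33 ± 0.37 (SE) at 24 h, 5.57 ± 0.35 at 48 h and 5.92 ± 0.36 at 72 h, then 3.55 ± 0.31 at 14 d and 2.02 ± 0.35 at 3 mo. The adjusted p of edgeR's test was 1.66e-09, 3.78e-10, 1.73e-10, 2.98e-08 and 0.00139 at these times, and the first 4 calls held under each of the 28 or 30 alternatives run. With cells thinned to 100 counts, Gstm3 was found in 3.0% and 1.0% of periportal cells at 0 h, 43.4% and 34.6% at 24 h, 43.3% and 66.7% at 48 h, 61.9% and 57.1% at 72 h, and 18.4% to 20.2% at 14 d. Without thinning the shares were 7.14% and 2.89% at 0 h and 91.3% and 86.9% at 72 h.

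Gstm2, of the same detoxifying family, had 2420 CPM at 24 h against 267 and 174 at 0 h, a log2 change of 3.45 ± 0.41 (adjusted p = 2.89e-06, edgeR). It was still 3.45 ± 0.37 higher at 14 d and stood at 287 CPM at 3 mo. Gstm1 had 64 CPM at 24 h, and rose by 2.71 ± 0.56 at 48 h and 2.98 ± 0.57 at 72 h. Its call at 48 h did not pass without section 2 of 48 h.

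Lect2, a secreted hepatokine and known Wnt target, had 2164 CPM at 24 h against 36 and 32 at 0 h, a log2 change of 5.97 ± 0.60 (adjusted p = 4.04e-07, edgeR). Later levels were lower than that, with 327 and 783 CPM at 48 h, 353 and 191 at 72 h, 308, 326 and 306 at 14 d and 45 at 3 mo. The changes of 4.01 ± 0.54 at 48 h, 2.97 ± 0.53 at 72 h and 3.18 ± 0.51 at 14 d passed the test and every alternative run. Cyp1a2, a central drug-metabolizing cytochrome, had 9082 CPM at 24 h against 833 and 333 at 0 h (3.95 ± 0.47, adjusted p = 2.89e-06, edgeR). At 48 h it had 1832 and 2424 CPM, a rise that also passed (1.86 ± 0.41, adjusted p = 0.00185, edgeR). At 72 h it had 512 and 935 CPM, within or just above the values of 0 h. The 2 sections of 24 h had 11.1 and 10.3 Cyp1a2 counts per 1000.

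Oat, the ornithine aminotransferase that marks the cells around the central vein, had 663 CPM at 24 h against 86 and 34 at 0 h, a log2 change of 3.43 ± 0.59 (adjusted p = 0.000254, edgeR). At 14 d it had 499, 463 and 377 CPM (2.86 ± 0.51). Cldn2, a claudin of leaky tight junctions, was higher by 2.64 ± 0.51 at 24 h, 2.43 ± 0.46 at 48 h and 1.97 ± 0.45 at 72 h. Rgn, the calcium-binding protein regucalcin, had 1193 and 610 CPM at 72 h (2.02 ± 0.39) and 1737, 2115 and 1889 CPM at 14 d (3.11 ± 0.39), against 190 and 255 at 0 h. Oat had at most 0.97 per 1000 in periportal cells of any section and at least 13.4 in pericentral cells. Cldn2 differed from this at 14 d: in a joint scaling of both zones it had 803, 763 and 770 CPM in periportal and 778, 785 and 854 CPM in pericentral cells.

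Cyp27a1, a sterol hydroxylase of bile acid synthesis, was the listed pericentral gene that fell at 24 h, 48 h and 72 h. Cpox, of heme synthesis, rose at 72 h and was the one that fell at 14 d and 6 mo. Cyp27a1 had 3735 CPM at 24 h, 2978 and 3787 at 48 h and 3599 and 2146 at 72 h, against 8481 and 7121 at 0 h. Its log2 change was -1.21 ± 0.28 at 48 h (adjusted p = 0.00311, edgeR) and -1.44 ± 0.28 at 72 h (adjusted p = 0.000851). The call at 24 h (-1.06 ± 0.36) was lost under 20 of 28 alternatives. Those at 48 h and 72 h were lost under both other scalings, at 48 h also without section 1 of 0 h or section 1 of 48 h, and at 72 h without its section 2. At 14 d Cyp27a1 had 7021, 7414 and 6835 CPM and no longer differed past the threshold.

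**Figure D4:**
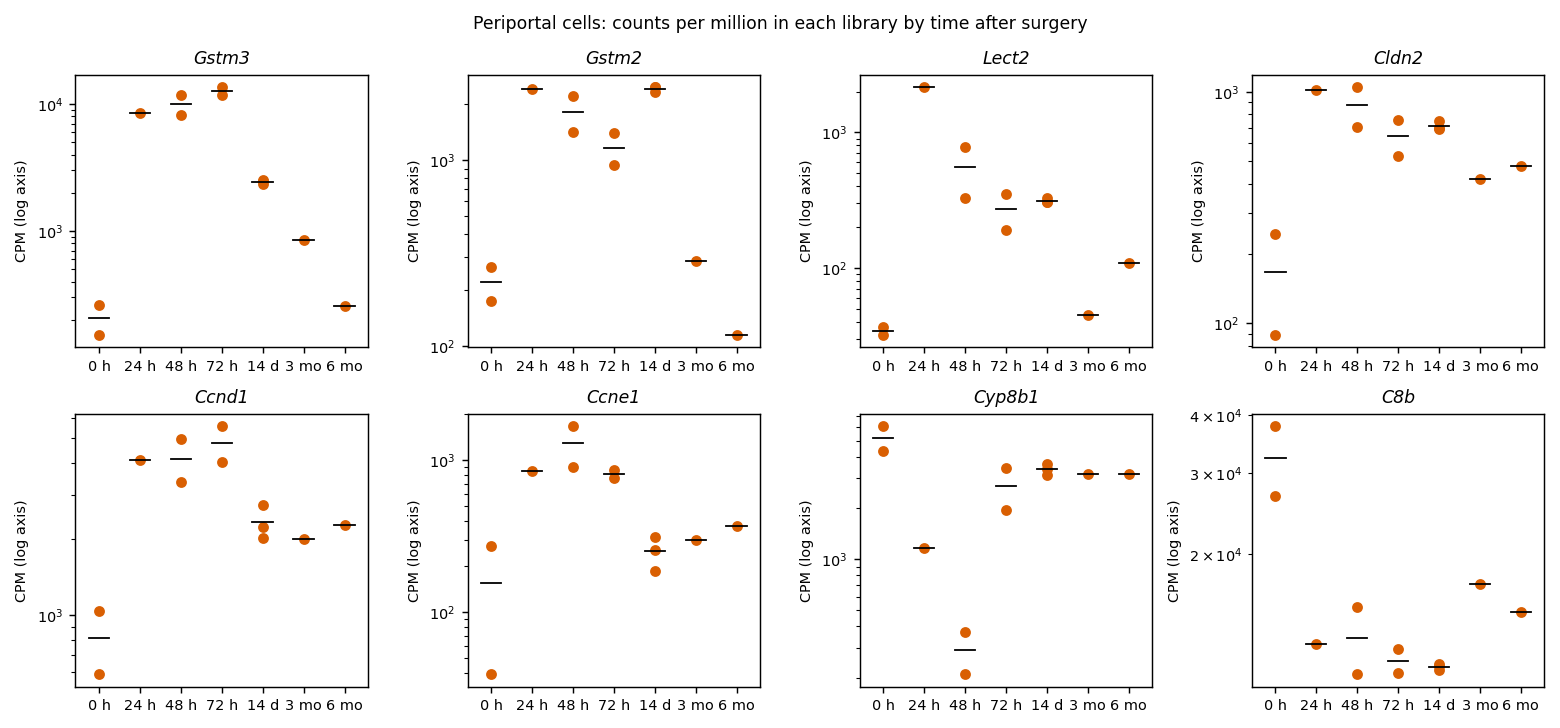
Points are the libraries of periportal cells at each time, in TMM-scaled CPM on a log axis, and bars are the means of a time. Gstm3, Gstm2, Lect2, Cldn2 and Ccnd1 lay above both 0 h libraries from 24 h to 14 d, Cyp8b1 lay lowest at 48 h, and C8b lay below both 0 h libraries at every later time.

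Of the 4 cell cycle genes in the panel, 2 could be tested, and both rose at 24 h, 48 h and 72 h, when 12.5% of all genes tested rose at each time. Ccnd1 had 1042 and 585 CPM at 0 h, 4114 at 24 h, 3354 and 4961 at 48 h, 5586 and 4047 at 72 h, 2026, 2234 and 2727 at 14 d, 1995 at 3 mo and 2281 at 6 mo. Every later library lay above both at 0 h, including those of 3 mo and 6 mo. The log2 change was 2.33 ± 0.39 at 24 h (adjusted p = 0.00019, edgeR), 2.35 ± 0.35 at 48 h (3.96e-05), 2.56 ± 0.35 at 72 h (3.42e-05), 1.51 ± 0.32 at 14 d (0.000753) and 1.48 ± 0.39 at 6 mo (0.0146). At 3 mo it was 1.29 ± 0.39 (0.0667). The calls from 24 h to 14 d held under every alternative run, and that at 6 mo was lost under both other scalings and with 14 d as 1 library.

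In cells thinned to 100 counts, Ccnd1 was found in 8.2% and 2.8% of periportal cells at 0 h, 23.5% and 28.0% at 24 h, 24.0% and 42.7% at 48 h, 40.4% and 33.2% at 72 h, 21.8%, 21.9% and 24.1% at 14 d, 18.3% at 3 mo and 14.3% at 6 mo. Without thinning the shares at 0 h were 18.4% and 8.48%, and those at 72 h 86.0% and 72.3%. The 2 sections of 48 h differed widely in this share, while all sections from 24 h on lay above both of 0 h.

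Ccne1, cyclin E1 of the entry into DNA synthesis, had 904 and 1663 CPM at 48 h against 271 and 39 at 0 h, a log2 change of 3.01 ± 0.65 (adjusted p = 0.00311, edgeR) that was lost without section 2 of 48 h. Its changes of 2.42 ± 0.72 at 24 h and 2.35 ± 0.64 at 72 h passed with adjusted p of 0.031 and 0.0217 but were lost under 10 of 28 and 9 of 30 alternatives. From 14 d on it did not differ past the threshold. Ccnb1, cyclin B1 of mitosis, had 11 counts in all periportal cells at 48 h and 1 at 0 h, a ratio of 7.38 with a 95% counting interval of 1.07 to 317, and 10 of the 11 lay in section 2. Ccna1, a cyclin A, had 0 counts at 0 h and at most 12 at any time.

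Of the 7 periportal genes tested, none passed at 24 h, 1 fell at 48 h, 1 at 72 h and 3 at 14 d, and none passed at 3 mo or 6 mo. None rose at any time with TMM scaling, while with scaling by cell number some passed as higher, as given below. Over all genes tested 9.09% fell at 48 h, 5.68% at 72 h and 15.9% at 14 d. The shares that rose were 12.5% at 24 h, 48 h and 72 h, 18.2% at 14 d and 10.2% at 6 mo. With only 7 genes, the lack of a rise is not read as a result. The list's median log2 change was -0.52 at 24 h and -0.56 at 48 h, then -0.62 at 72 h and -0.12 at 14 d, and came to -0.03 at 3 mo and -0.24 at 6 mo.

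Cps1 had 72718 and 72952 CPM at 48 h, 67777 and 71904 at 72 h and 57375, 54343 and 55711 at 14 d, against 104798 and 178967 at 0 h. Its log2 change was -0.96 ± 0.30 at 48 h, -1.02 ± 0.31 at 72 h and -1.35 ± 0.27 at 14 d (adjusted p = 0.000539, edgeR). The calls at 48 h and 72 h were lost with total-count scaling, and under 17 and 9 of 30 alternatives. Counted per cell, its mean was not lower: periportal cells had 54.1, 46.8 and 33.1 Cps1 counts per cell at 14 d against 32.1 and 34.1 at 0 h. Arg1 had 11120, 9571 and 8849 CPM at 14 d against 21801 and 26091 at 0 h, a log2 change of -1.28 ± 0.22 (adjusted p = 0.000116, edgeR) that was lost with total-count scaling. Per cell it had 10.5, 8.25 and 5.26 counts at 14 d and 6.68 and 4.97 at 0 h, so that the direction turned there as well, as it did for Cps1 at 72 h.

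Ass1 had 6019 and 7084 CPM at 48 h and 4393 and 8551 at 72 h against 10513 and 11708 at 0 h, which did not pass (adjusted p = 0.0812 and 0.0756, edgeR). At 14 d it had 14434, 10725 and 12047 CPM, around the values of 0 h. Gls2 lay between 2443 and 4812 CPM in all libraries, where the 2 of 0 h had 4244 and 2823. Fbp1 had 42207 to 67756 CPM throughout, and its log2 changes of -0.31 to -0.01 did not pass. With scaling by cell number Fbp1 passed as higher at 72 h (0.84) and 14 d (1.54). That scaling put the median gene at 1.16 at 72 h and 1.64 at 14 d, so neither value lay above the median gene. Hsd17b13 had 19066 and 13606 CPM at 72 h against 12492 and 11142 at 0 h (0.47 ± 0.26, adjusted p = 0.231, edgeR). With scaling by cell number it passed as higher at 14 d (1.64), at about the level of the median gene under that scaling.

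G6pc fell to 5298, 5990 and 6877 CPM at 14 d, against 20832 and 251604 at 0 h (-4.49 ± 1.06, adjusted p = 0.022, edgeR). All 3 libraries of 14 d lay below both of 0 h, but the log2 difference between the 0 h libraries was wider than that between section 1 of 0 h and 14 d, and the call was lost on leaving out any 1 of the 14 d sections. At 24 h to 72 h its libraries, at 8630 to 40961 CPM, lay on both sides of section 1 of 0 h and did not pass.

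Other amino acid genes followed no single direction. Of the 8 genes of the urea cycle and amino acid list that were tested, 1 rose at 24 h, 1 rose and 2 fell at 48 h, 1 fell at 72 h, and 3 rose and 2 fell at 14 d. Over all genes tested 12.5% rose at 24 h, 12.5% rose and 9.09% fell at 48 h, 5.68% fell at 72 h, and 18.2% rose and 15.9% fell at 14 d. Prodh, which starts proline breakdown, had 2970 and 2919 CPM at 48 h against 8538 and 4263 at 0 h (-1.12 ± 0.29, adjusted p = 0.00726, edgeR). That call was lost under both other scalings and on leaving out section 1 of 0 h or a section of 48 h. Prodh had 10707, 10920 and 11788 CPM at 14 d. The list's median was -0.26 at 24 h, -0.64 at 48 h, -0.47 at 72 h and 0.22 at 14 d.

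Of the 7 bile acid and drug metabolism genes, 3 rose and 2 fell at 24 h, 4 rose and 2 fell at 48 h, 3 rose and 1 fell at 72 h, and 3 rose at 14 d. Over all genes tested 12.5% rose at 24 h, 48 h and 72 h and 18.2% at 14 d, while 4.55% fell at 24 h, 9.09% at 48 h and 5.68% at 72 h. Cyp8b1, the sterol hydroxylase that directs synthesis toward cholic acid, had 4333 and 6073 CPM at 0 h, 1163 at 24 h, 373 and 209 at 48 h, 1945 and 3444 at 72 h, 3659, 3384 and 3150 at 14 d, 3179 at 3 mo and 3175 at 6 mo. It was lowest at 48 h, and in these TMM-scaled levels all later libraries still lay below both of 0 h. The order after 48 h depends on the scaling. Counted per cell, Cyp8b1 had 3.45, 2.92 and 1.87 counts in the 14 d libraries, above the 1.33 and 1.16 of 0 h. With scaling by cell number it passed as higher at 14 d (1.14), though below the median gene under that scaling (1.64). The log2 change was -2.16 ± 0.46 at 24 h (adjusted p = 0.00207, edgeR) and -4.16 ± 0.39 at 48 h (1.12e-07), and that at 48 h held under every alternative run. The values of -0.95 ± 0.34 at 72 h and -0.61 ± 0.30 at 14 d did not pass.

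Of the 8 lipid genes, 1 fell at 24 h, 1 at 48 h, 2 at 14 d and 1 at 6 mo, and none rose. The shares of all genes that fell were 4.55% at 24 h, 9.09% at 48 h, 15.9% at 14 d and 7.95% at 6 mo. Those that rose were 12.5% at 24 h, 48 h and 72 h, 18.2% at 14 d and 10.2% at 6 mo. With only 8 genes, the lack of a rise is not read as a result. Fads1, a desaturase of polyunsaturated fatty acids, had 5282 CPM at 24 h against 12395 and 20687 at 0 h (-1.65 ± 0.37, adjusted p = 0.00326, edgeR), and 8889 and 12690 CPM at 48 h. Elovl2, an elongase of the same pathway, had 2364, 2795 and 2716 CPM at 14 d against 10845 and 10050 at 0 h (-1.99 ± 0.23, adjusted p = 1.01e-06, edgeR). The fall of Elovl2 was lost when libraries were scaled by cell number.

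Of the 10 secreted plasma proteins tested, 1 fell at 24 h, 3 at 48 h and 2 at 72 h, then 5 at 14 d and 3 at 6 mo. Over all genes tested 4.55% fell at 24 h, 9.09% at 48 h and 5.68% at 72 h, then 15.9% at 14 d and 7.95% at 6 mo. At each of these times 1 rose, Lect2 up to 14 d and Igfbp2 at 6 mo. For a list of 10 this is near the shares of all genes that rose, 12.5% at 24 h, 48 h and 72 h, 18.2% at 14 d and 10.2% at 6 mo. The median of the list was -0.48 at 24 h and -0.36 at 48 h, then -0.52 at 72 h and -0.83 at 14 d, and came to -0.63 at 3 mo and -0.86 at 6 mo. C8b, a chain of the membrane attack complex, had 26664 and 37897 CPM at 0 h, 12756 at 24 h, 10931 and 15318 at 48 h, 12382 and 10979 at 72 h, 11512, 11387 and 11177 at 14 d, 17229 at 3 mo and 14915 at 6 mo. Every later library lay below both of 0 h, and the changes of -1.34 ± 0.34 at 24 h, -1.30 ± 0.26 at 48 h and -1.47 ± 0.26 at 72 h, then -1.51 ± 0.23 at 14 d and -1.11 ± 0.33 at 6 mo passed. With scaling by total counts or by cell number none of these passed, and with cell number the change at 14 d turned to 0.24.

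C6, of the same complex, had 1543, 2003 and 1906 CPM at 14 d against 16787 and 12444 at 0 h (-3.01 ± 0.24, adjusted p = 2.16e-08, edgeR), and this call held under every alternative run. Vtn, vitronectin, had 62411, 77727 and 79915 CPM at 14 d against 122308 and 236938 at 0 h (-1.29 ± 0.30). At 6 mo Igf1 had 9202 CPM against 26747 and 20942 at 0 h (-1.37 ± 0.34, adjusted p = 0.0146, edgeR). Pon1, an enzyme carried on high-density lipoprotein, had 4050 CPM at 6 mo against 8302 and 14097 (-1.47 ± 0.37), and both of these falls at 6 mo were lost under either other scaling. Igfbp2 rose to 40895 CPM at 6 mo, against 8346 and 15437 at 0 h (1.78 ± 0.33, adjusted p = 0.00373, edgeR), under all 26 alternatives run.

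Among Wnt pathway genes Axin2, a feedback inhibitor and general target of the pathway, had 352, 609 and 965 CPM at 14 d against 36 and 34 at 0 h, a log2 change of 4.17 ± 0.56 (adjusted p = 8.31e-06, edgeR), under every alternative run. It had 149 CPM at 24 h, 31 and 47 at 48 h, 24 and 25 at 72 h and 23 at 3 mo, and of these times only 24 h passed (2.07 ± 0.63, adjusted p = 0.0303, edgeR), a call lost with total-count scaling and without section 2 of 0 h. At 6 mo Axin2 had 216 CPM (2.60 ± 0.63, adjusted p = 0.0146, edgeR), a call lost with total-count scaling. Wnt11, a ligand known from noncanonical signalling, had 62, 93 and 114 CPM at 14 d against 14 and 10 at 0 h (2.85 ± 0.57, adjusted p = 0.000516, edgeR). Znrf3, which removes Wnt receptors from the membrane, had 417, 445 and 499 CPM at 14 d against 1418 and 1227 (-1.54 ± 0.28, adjusted p = 0.000184), a fall lost with total-count scaling. Fzd2, a frizzled receptor, had 242 counts in the 3 sections of 14 d and 0 at 0 h, which is at least 12.9-fold higher, with 3 counts taken as the floor of both 0 h libraries together. Of the 19 Wnt receptors and regulators tested, 3 rose and 4 fell at 14 d, and of the 14 ligands 2 rose, when 18.2% of all genes tested rose and 15.9% fell. At 6 mo 2 receptors and regulators and 3 ligands rose, and 0 fell, when 10.2% of all genes rose and 7.95% fell. The counts at 14 d, and that of the receptors and regulators that rose at 6 mo, are near the shares over all genes. The 3 of 14 ligands that rose at 6 mo are above that share and rest on 1 library.

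Slide 3 held all sections of 14 d, their cells had the highest counts, and Cyp2e1 was present in 28.2% to 36.6% of their periportal cells, as given above. What part these had in the changes at 14 d was not tested. Leaving out cells with a transcript of Pecam1, Adgre1, Lyz2, Ptprc or Lrat gave a log2 change at 24 h of 5.56 for Gstm3 and 2.95 for Ccnd1, where all periportal cells gave 5.33 and 2.33. Of the marker lists of other cell types, 1 of 3 macrophage and leukocyte genes fell at 72 h (Lyz2). Of 2 biliary genes 1 rose at 72 h and 14 d (Cldn7), and 1 of 4 endothelial genes fell at 6 mo (Pecam1). No other member passed in periportal cells at any time. Over all genes tested 5.68% fell and 12.5% rose at 72 h, 18.2% rose at 14 d and 7.95% fell at 6 mo. In lists this short, 1 call is not read as a change of a cell type. The rise of Cldn7 at 72 h was lost under 15 of 30 alternatives and the fall of Lyz2 under 18 of 29.

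The single library of 6 mo gave 16 calls that rest on the spread between sections of other times. Tbx3, a transcription factor known as a Wnt target, had 114 CPM (55 counts) at 6 mo against 25 and 20 at 0 h (2.32 ± 0.60, adjusted p = 0.0146, edgeR). Fzd6, a frizzled receptor, had 166 CPM at 6 mo against 21 and 42 (2.45 ± 0.64). Uqcrh, a subunit of respiratory complex III, had 380 CPM against 1306 and 1104 (-1.66 ± 0.44), and Cpox 857 against 2491 and 2025 (-1.40 ± 0.37). All 4 calls were lost with total-count scaling and with 14 d as 1 library, and those of Uqcrh and Cpox also without section 2 of 14 d. Pecam1, of endothelial cells, had 453 CPM at 6 mo against 2009 and 757 at 0 h, a change of -1.61 ± 0.50, lost under 13 of 25 alternatives, and its sign turned when Gls2 replaced Pck1 in the rule.

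**Figure D5:**
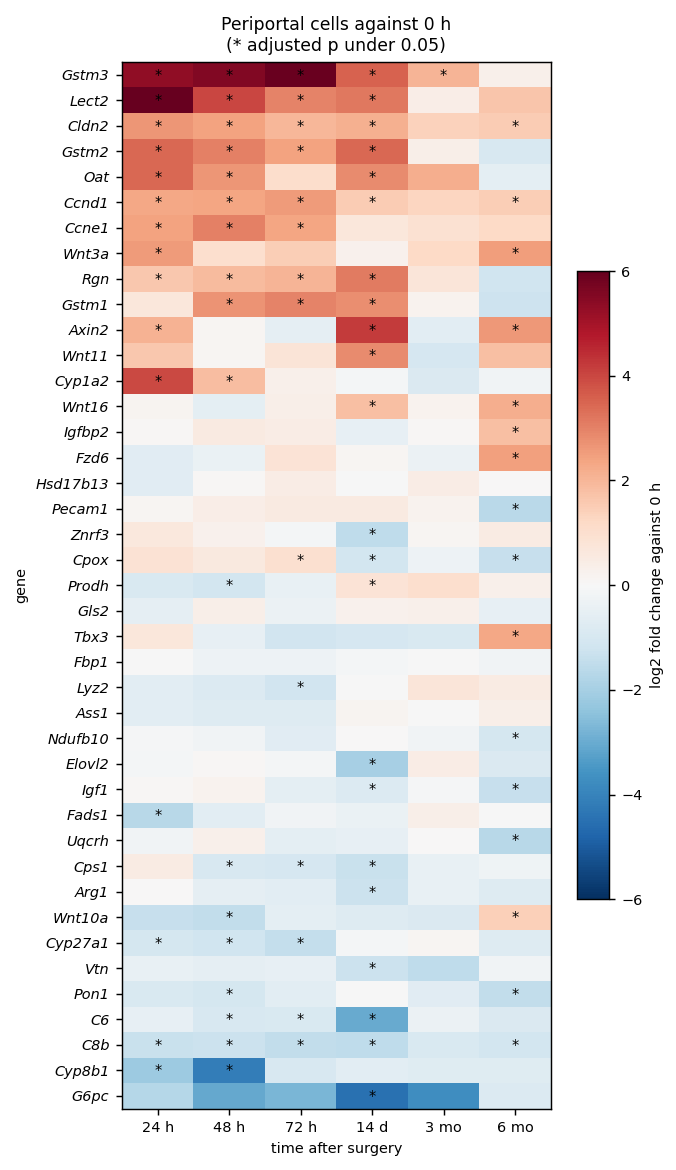
Rows are the genes with the largest changes at any time and the periportal and cell cycle genes, columns are times, and colour is the log2 fold change of periportal cells against 0 h, with an asterisk where the adjusted p was under 0.05. Fzd2, called higher at 14 d with 0 counts at 0 h, was left out of the rows. Gstm3, Lect2, Cldn2 and Ccnd1 were called higher at 24 h, 48 h, 72 h and 14 d, while Gls2, Ass1, Fbp1 and Hsd17b13 were called at none.

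Whether the periportal cells changed differently from pericentral cells of the same sections was tested as the change in the difference between both zones, which compares each library with itself. Of 90 genes, 2 (2.22%) had a higher and 1 (1.11%) a lower periportal minus pericentral difference at 24 h than at 0 h, 3.33% in all. At 48 h 4 (4.44%) were higher and 9 (10%) lower, 14.4% in all, and at 72 h 4 (4.44%) higher and 5 (5.56%) lower, 10% in all. At 14 d 16 (17.8%) were higher and 5 (5.56%) lower, 23.3% in all, at 3 mo 0 passed (0%), and at 6 mo 1 (1.11%) was higher and 3 (3.33%) lower, 4.44% in all, by edgeR's test with a block for the library. At 3 mo 8 genes had an unadjusted p under 0.05, and limma on the difference called 1. With total-count scaling the counts were 2 higher and 1 lower at 24 h, 2 and 6 at 48 h, 3 and 0 at 72 h, 8 and 11 at 14 d, and none at 3 mo and 6 mo. In log2 it moved the median gene by -0.35 at 24 h and -0.40 at 48 h, by 0.35 at 72 h and -0.67 at 14 d, and by 0.29 at 3 mo and 0.27 at 6 mo. Single sections weighed heavily on these counts. At 24 h leaving out section 1 of 0 h gave 13 calls, its section 2 gave 6, and a section of 72 h 5. At 48 h leaving out section 1 of 0 h gave 20 calls, section 1 of 14 d 1, section 2 of 0 h or section 1 of 24 h 4, 6 mo 6, section 1 of 48 h 7, and section 2 of 48 h or section 2 or 3 of 14 d 8. At 72 h leaving out section 1 of 0 h gave 27, section 1 of 24 h or of 14 d 1, section 1 of 48 h or section 2 of 72 h 4, and section 1 of 72 h, section 2 of 14 d or 6 mo 5. At 14 d there were 10 calls without its section 1 and 13 without its section 3. At 3 mo leaving out section 1 of 0 h gave 4, and section 2 of 48 h gave 1. At 6 mo leaving out section 2 of 0 h gave 16, section 1 of 24 h or any section of 48 h gave 0, section 1 of 14 d gave 1 and section 2 of 14 d gave 2.

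Lect2 and Cyp1a2 led the differences at 24 h. In this joint scaling Lect2 had 1607 CPM in periportal and 10014 CPM in pericentral cells at 24 h, against 29 and 29 in periportal and 5693 and 2157 in pericentral cells at 0 h, so that the difference rose by 4.35 ± 0.61 in log2 (adjusted p = 0.00597, edgeR). Cyp1a2 had 6742 CPM in periportal and 11344 CPM in pericentral cells at 24 h, against 670 and 301 in periportal and 21568 and 14261 in pericentral cells at 0 h, a difference higher by 4.53 ± 0.49 (adjusted p = 0.00208). At 24 h Cyp1a2 was thus higher in periportal and lower in pericentral cells than at 0 h. Gstm3 at 48 h reached 5610 and 9466 CPM in periportal and 82481 and 61899 CPM in pericentral cells, rises on both sides whose difference did not pass.

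At 14 d 11 of the 17 pericentral genes tested had a higher difference (17.8% of all genes tested did) and none a lower one (5.56%). The list median was 2.76 against 0.19 over all genes. The rule took in more cells with Cyp2e1 at that time. Periportal cells had 1.19, 1.16 and 0.72 Cyp2e1 counts per cell at 14 d, against 0.0015 and 0.0023 at 0 h. What part this had in these differences was not tested. Axin2 had 411, 667 and 996 CPM in periportal and 1152, 1166 and 1153 CPM in pericentral cells at 14 d, against 29 and 31 in periportal and 1133 and 1338 in pericentral cells at 0 h (4.51 ± 0.43, adjusted p = 0.000224, edgeR). Rgn had 2025, 2315 and 1948 CPM in periportal and 14292, 15052 and 13294 CPM in pericentral cells at 14 d, against 153 and 230 in periportal and 20120 and 15308 in pericentral cells at 0 h (3.78 ± 0.31, adjusted p = 0.000138). Both calls held under each of the 24 alternatives run.

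Hsd17b13 moved the other way. It had 7897 and 11015 CPM in periportal and 605 and 716 CPM in pericentral cells at 48 h, against 10050 and 10077 in periportal and 88 and 92 in pericentral cells at 0 h, and its difference changed by -2.98 ± 0.38 (adjusted p = 0.00682, edgeR). Its periportal level was similar at both times and its pericentral level was higher at 48 h. The call was lost against middle cells, at -0.72. The cyclins Ccnd1 and Ccne1 passed at no time in this comparison, where Ccnd1 had 2320 and 3992 CPM in periportal and 9904 and 6864 CPM in pericentral cells at 48 h, against 839 and 529 in periportal and 1034 and 1448 in pericentral cells at 0 h.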

How the data were processed

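The authors deposited transcript counts per gene and cell for each section. Transcript positions were given for 12 of the 13 sections. The sources used here do not say how transcripts were decoded or cells outlined. Counts were summed over the periportal and over the pericentral cells of each library. Cell names hold positions, which was checked against the transcript lists, and pairs of sections shared at most 2 names. Genes with 10 or more counts in 2 or more libraries were tested in R 4.3.3 with the robust quasi-likelihood F test of edgeR 4.0.16 after TMM scaling, in a single fit of 7 times with 12 libraries and 5 residual degrees of freedom. P-values were adjusted by Benjamini-Hochberg over all genes tested, with a threshold of 0.05. The zone difference was tested in 24 zone libraries with the library as a block. The SE of a log2 change is its size over the root of its F value. TMM takes most genes as unchanged, and a chosen gene panel may break that. A time with 1 library (24 h, 3 mo and 6 mo) is assumed to vary like the others. Both fits were also run on simulated counts. These used the same spread for every gene and left out the wide difference between the 0 h sections. They therefore do not show how the fits behave on these data. Counting intervals are at 95% and, like the floor of 3 counts, cover counting error only.

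The members, gene lists and rules were chosen with earlier results of these data known. Named genes were, at each time, up to 8 rises and 8 falls of greatest size among genes that passed with all libraries beyond both at 0 h, every measured periportal and cell cycle gene, Cyp8b1, and at most 2 others per list. For the zone difference they were up to 5 called changes each way. Alternatives were other scalings, DESeq2 1.42.0, limma 3.58.1, no filter on low counts, the 3 genes of the rule left out, 10% or 30% of cells, 200 counts per cell, Gls2 in place of Pck1, cells without transcripts of other cell types, square tiles of transcripts (without section 3 of 14 d, whose transcript positions were not used here), other groupings of the 24 h and 14 d sections, slide or section number as a block, slide 1 alone, middle cells, and leaving out each section.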

Additional observations from a re-analysis of the deposited data

Results flagged for a closer look

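The periportal and the pericentral cells of the same sections changed differently for the genes below, by the zone-by-time term of edgeR's test with Benjamini-Hochberg adjustment. Values are changes of the periportal minus pericentral difference against 0 h in log2. At 24 h the change was 4.53 for Cyp1a2, 4.35 for Lect2 and -1.64 for Fads1. At 48 h it was 2.42 for Lect2, 2.19 for Cyp1a2, 1.98 for Rgn and 1.54 for Oat, and on the other side -2.98 for Hsd17b13, -1.48 for Vtn, -1.45 for Fads1, -1.27 for Elovl2 and -1.03 for Apof. At 72 h it was 3.34 for Gstm3, 2.15 for Lect2, 1.96 for Rgn and 1.30 for Oat, against -2.02 for Hsd17b13, -1.29 for Cyp27a1, -1.22 for Fads1, -0.96 for Vtn and -0.95 for Epas1. At 14 d it was 4.51 for Axin2, 3.83 for Lect2, 3.78 for Rgn, 3.64 for Gstm3 and 3.33 for Cldn2, against -2.34 for Rspo1, -2.27 for Sox9, -2.13 for Hsd17b13, -1.79 for Gpc1 and -0.91 for Wnt2. At 6 mo it was 2.71 for Axin2, -2.23 for Wnt10a, -2.03 for Wnt2 and -1.36 for Lrp6. Rspo1, listed at 14 d, was scarce: at 0 h it had 8 and 16 counts in periportal cells and 2.15 and 5.24 CPM in pericentral cells. Sox9 and Wnt2 passed narrowly at 14 d, with adjusted p of 0.0480 and 0.0497 (edgeR).

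Of these 35 calls, 5 held under each alternative run: Lect2 and Cyp1a2 at 24 h, and Axin2, Rgn and Gstm3 at 14 d. At 72 h the call was lost under 13 of 25 alternatives for Hsd17b13, 17 for Fads1 and 20 for Vtn, and Fads1 and Vtn each turned under 1 more.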

How the results depend on the processing

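Of 82 named calls in periportal cells, 30 held under every alternative run, and of 35 named calls of the zone difference 5 did. Scaling by cell number put the median gene at 1.16 at 72 h and 1.64 at 14 d, and some signs turned. Called falls turned positive at 14 d for Apom (0.98), Arg1 (0.46), C8b (0.24), Cps1 (0.43), Vtn (0.48) and Znrf3 (0.10). At 72 h they did so for C6 (0.20) and Cps1 (0.22). Of these only Apom passed as higher. Negative changes that had not been called passed as higher at 14 d for Cpt2 (1.06), Cyp8b1 (1.14), Fbp1 (1.54), Hsd17b13 (1.64) and Uqcrh (1.14). Fbp1 (0.84) did so at 72 h. Without section 1 of 0 h Adgre1 turned to 1.25 at 3 mo and 0.92 at 48 h, and without section 2 of 0 h G6pc turned to 1.82 at 6 mo. With all sections these changes were not called. Over all left-out sections Adgre1 ran from -0.95 to 1.25 at 3 mo and from -1.15 to 0.92 at 48 h, and G6pc from -1.49 to 1.82 at 6 mo. With Gls2 in place of Pck1 Pecam1 turned to 0.13 at 6 mo. Among zone differences, slide 1 alone turned Apof at 48 h (0.080) and Cyp27a1 (0.00395), Fads1 (0.20) and Vtn (0.39) at 72 h, middle cells in place of pericentral ones turned Epas1 at 72 h (0.10) and Wnt10a (0.16) and Wnt2 (0.24) at 6 mo, and leaving out section 1 of 0 h turned Epas1 at 72 h (0.21; range -1.01 to 0.21). The cause was not tested.

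Counts of calls in periportal cells, 15 at 24 h and 19 at 48 h, then 16 at 72 h and 30 at 14 d, and lastly 1 at 3 mo and 16 at 6 mo, moved as follows. Total-count scaling gave 12 at 48 h, 9 at 72 h and 1 at 6 mo, DESeq2 29 at 48 h and 7 at 3 mo, and scaling by cell number 34 at 72 h and 68 at 14 d, then 6 at 3 mo and 5 at 6 mo. Separate libraries for both 24 h sections gave 27 at 24 h and 2 at 3 mo, and 14 d as 1 library 10 at 72 h, 13 at 14 d and 1 at 6 mo. Slide 1 alone gave 7 at 72 h and 0 at 3 mo. At 3 mo the other moves were 5 with no filter, 5 without Cyp2e1, Pck1 and Glul, 7 with 10% of cells, 4 with Gls2 in place of Pck1, 3 without cells of other types, 3 with tiles and 4 with slide as a block. Leaving out single sections gave 14 to 32 at 24 h and 9 to 37 at 48 h, then 10 to 33 at 72 h and 24 to 43 at 14 d, and lastly 1 to 25 at 3 mo and 9 to 27 at 6 mo.

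Correlations between times of the deviations of sections with the same number ran from -0.39 to 0.25. So few correlations cannot decide whether the numbers pair the sections. The highest, 0.25, was that of 0 h with 72 h, where sections 1 and 2 lay on slides 1 and 2. With the number as a replicate block the calls were 14 at 48 h, 10 at 72 h and 24 at 14 d.

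Counts of the zone difference, which were 3, 13, 9, 21, 0 and 4 from 24 h to 6 mo, moved more. Total-count scaling gave 8 at 48 h, 3 at 72 h and 0 at 6 mo, and limma 4 at 72 h and 1 at 3 mo. Leaving Cyp2e1, Pck1 and Glul out gave 8 at 48 h and 1 at 3 mo, 10% of cells 6 at 48 h and 2 at 6 mo, 30% of cells 6 at 24 h, and 200 counts per cell 7 at 48 h and 5 at 72 h. Gls2 in place of Pck1 gave 4 at 72 h, 1 at 3 mo and 7 at 6 mo. Separate 24 h libraries gave 24 at 24 h, 15 at 72 h, 32 at 14 d and 2 at 3 mo. Slide 1 alone gave 5 at 24 h, 6 at 48 h and 5 at 72 h, 14 d as 1 library 5 at 48 h, 3 at 72 h, 5 at 14 d and 0 at 6 mo, and middle cells in place of pericentral ones 4 at 48 h. A fit of times with 2 or more libraries, added after seeing the data, gave 6 at 48 h and 5 at 72 h. Leaving out single sections gave 2 to 13 at 24 h and 1 to 20 at 48 h, then 1 to 27 at 72 h and 10 to 29 at 14 d, and lastly 0 to 4 at 3 mo and 0 to 16 at 6 mo.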
